A study of Rattus norvegicus with 6 samples.

Results

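The potassium channel genes of the array were followed across 3 groups of male Wistar rats, aged 11 weeks at the start, as the probes whose gene name begins with Kcn, apart from Kcnj13 and Kcne2. This choice took 104 of the 41012 probes, for 84 genes. Hippocampal RNA of sedentary rats that rested on the treadmill (CONT), of rats trained by mild exercise below the lactate threshold (ME, 15 m/min) and of rats trained by intense exercise above it (IE, 40 m/min) was compared after 6 weeks of running for 60 min/day, 5 times/week. RNA of 5 rats per group was pooled, and each pair of pools was hybridized on 2 DNA microarrays with the dyes Cy3 and Cy5 swapped, which gave 6 arrays. The 6 weeks included habituation to the treadmill with slight electric shocks, which took longer in IE than in ME rats. Some IE rats were sparingly given further shocks after habituation, and IE rats that refused to run were removed. Length of habituation, further shocks, removal of runners and intensity thus cannot be told apart. Tissue was taken a day or more after the last session. Different pools are named in the sample records for the arrays of a swap, but the methods describe 1 pool a group. With 1 pool a group, each comparison held 1 replicate, the SD given below is that between the arrays of a swap, and no test across rats was possible. In whole hippocampus, fewer cells of a type and less RNA per cell cannot be told apart.

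Potassium channels let potassium ions out of the cell, which sets the resting potential, ends the action potential and limits repetitive firing. The pore subunits fall into voltage-gated channels (Kcna to Kcnd, with the M-type Kcnq and the ether-a-go-go Kcnh subunits), channels opened by calcium or sodium (Kcnma, Kcnn, Kcnt), inward rectifiers (Kcnj) and 2-pore leak channels (Kcnk). Kcnf, Kcng, Kcns and Kcnv subunits form no channel alone and modify Kcnb channels. Kcnab, Kcnip, Kcne and Kcnmb encode accessory subunits that alter gating or surface transport. In hippocampal pyramidal neurons, A-type channels of the dendrites, M-type channels and calcium-activated channels are known to tune excitability, and Kcnj10 clears potassium in astrocytes.

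Each probe is 60 bases long and was printed as 1 spot. The deposited probes on which the results below turn are shown here, with the channels that were lowest or highest on both arrays of a swap and those whose signal followed the dye. The Kcna3 probe A_44_P247900 is given whole, and it has no stop codon in any of the 3 forward frames. Of the others the first 30 bases are given, 5′ to 3′. Exon and UTR annotations are not given in the sources used here, and coordinates are those of the array files (rn3) for the whole probe.
Kcnj12 (A_42_P603096, chr10:47228479-47228538, plus strand): gagcaggtcctagccatggtgggagaaggc
Kcnn4 (A_42_P602511, chr1:79706808-79706867, plus strand): ctcaagctctgttggaagaggaggtgcccg
Kcnk2 (A_43_P13418, chr13:105565116-105565175, minus strand): ttcttgaaggctgatgtggtgggatgtacc
Kcnma1 (A_43_P15328, chr15:950209-950268, plus strand): aaagtcagacaatgttcactgtcaaggaaa
Kcnma1 (A_44_P259947, chr15:949056-949115, plus strand): acggataatgcctatcccagaaacattcaa
Kcnh4 (A_42_P606156, chr10:89694115-89694174, minus strand): tccacctggtctccagaatactacacttgc
Kcna3 (A_44_P300788, chr2:202438225-202438284, plus strand): acagatgaaacgaaaacagcaatataaaca
Kcna3 (A_44_P247900, chr2:202435986-202436045, plus strand): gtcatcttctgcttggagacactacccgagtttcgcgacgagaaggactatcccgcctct

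Most potassium channel probes gave a signal in hippocampal RNA. Every probe was read 12 times, in each dye of the 6 arrays, and 71 of the 104 probes (68.3%) were well above background in all 12 readings, against 60.3% of all probes. These 71 probes stand for 59 genes. For 5 genes no probe passed in any reading, and the 8 probes at 0 of 12 readings included those of Kcna7, Kcne3, Kcnj1, Kcnk15 and Kcnq1, and 1 of the probes of Kcnj6 and Kcnmb1. The Kcnc, Kcnab, Kcns, Kcnma and Kcnt probes passed in every reading, while no probe of Kcne, Kcnf1 or Kcnrg did. Kcnj had the largest number of probes, 18 for 14 genes, of which 14 passed in all readings. Kcnj6, which encodes a pore subunit of the G protein-gated channel, had a probe above background in all 12 readings beside the probe with none, so that a dim probe here does not show a silent gene.

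**Figure D1:**
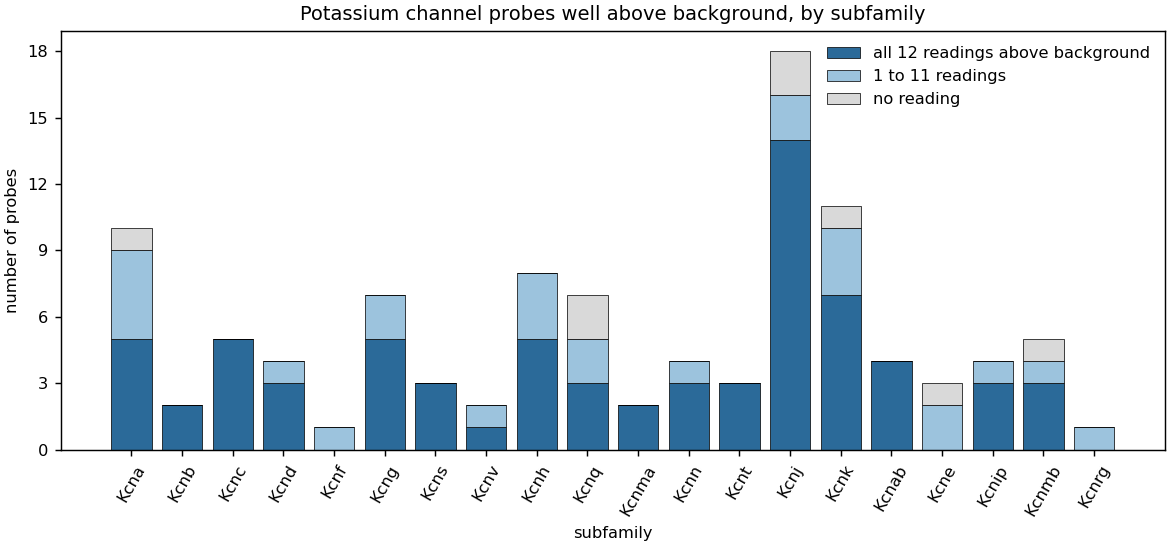
Number of potassium channel probes of each subfamily (vertical axis) by how many of the 12 readings were well above background. Of the 104 probes, 71 passed in all 12 readings, 25 in 1 to 11 and 8 in none.

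None of the 104 Kcn probes met the criteria for regulation with ME, with IE or between the intensities. The criteria asked for a Cy5/Cy3 ratio of 1.5 or more with one labelling and of 0.75 or less with the swapped one, and for a p from the scanner software below 0.01 on both arrays. Each p compares 2 pools on 1 array. With ME, 0 of 102 Kcn probes with a value were called, where 50 of all probes were (0.122%, up: 45, down: 5). With IE, 0 of 104 were called, where 12 of all probes were (0.0293%, up: 10, down: 2). Between IE and ME, 0 of 104 were called, where 30 of all probes were (0.0732%, up: 5, down: 25). Without the p threshold the count stayed at 0 of 102 with ME (0.987% of all probes), 0 of 104 with IE (0.667%) and 0 of 104 between IE and ME (1.06%). With shares this low among all probes, a count of 0 does not set the potassium channels apart. The values missing with ME belonged to Kcnh4 and Kcnk13, whose spots the software had marked as outliers.

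**Figure D2:**
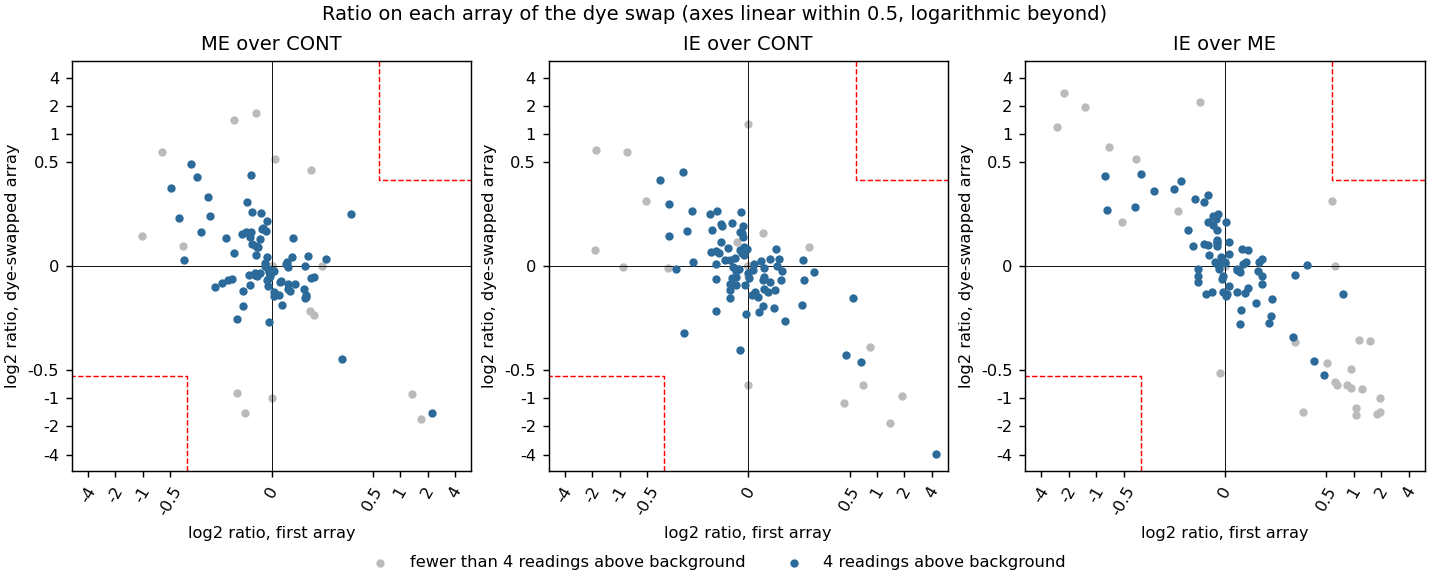
Log2 ratio of each potassium channel probe on the first array (horizontal) and on the dye-swapped array (vertical), turned so that the exercise or IE pool is the numerator, on axes that are linear within 0.5 and logarithmic beyond. Red dashed lines bound the fold range of the criteria, and no probe lies inside it, with blue points for probes above background in all 4 readings of a swap.

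Ratios of the potassium channel probes were centred near 0. Among probes well above background in all 4 readings of a swap, the median log2 ratio was -0.0097 over 81 Kcn probes with ME, -0.0080 over 82 with IE and 0.012 over 74 in IE over ME. The medians over all probes as bright were -0.0025, 0.0018 and 0.0028. The mean log2 ratio stayed within 0.2 for 77 of 81, 79 of 82 and 71 of 74 of these Kcn probes (95.1%, 96.3% and 95.9%, against 94.3%, 95.4% and 93.3% of all bright probes). The median SD between the arrays of a swap was 0.12, 0.13 and 0.13, above the median size of the mean ratio (0.050, 0.048 and 0.048). As the dyes were swapped, this SD also holds the part of a ratio that follows the dye, which the mean removes. It is thus not the error of the mean. The mean was larger than its SD for 23 of 81, 17 of 82 and 13 of 74 Kcn probes (28.4%, 20.7% and 17.6%, against 21.2%, 20.5% and 19.4% of all bright probes).

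Both arrays of a swap gave the same sign for 29 of 81 Kcn probes with ME, 25 of 82 with IE and 21 of 74 in IE over ME. With ME, 21 of these were below 0 and 8 above, or 25.9% and 9.88% of the bright Kcn probes, where 15.0% and 13.6% of all bright probes were. With IE, 18 were below 0 and 7 above (22.0% and 8.54%, against 13.6% and 14.6%). Probes below 0 on both arrays were thus the more frequent kind in either exercise pool, but the comparisons share the CONT pool. When the raw signals were corrected by normexp and normalized by loess, the split was 13 below 0 and 9 above with ME, and 16 and 9 with IE. With loess and no background subtraction it was 15 below 0 and 8 above with ME, and 15 and 6 with IE. The shares over all bright probes were not counted for these alternatives. In IE over ME, 12 probes were above 0 on both arrays and 9 below. None of these same-sign probes had a software p below 0.01 on either array, and the smallest was 0.13 with ME (Kcnn4), 0.093 with IE (Kcns1) and 0.079 in IE over ME (Kcng4). The sign of a small group median was not stable: after normexp and loess it turned for the inward rectifiers with ME (0.0032), for the voltage-gated (-0.0011) and accessory subunits (-0.0019) with IE, and for the 2-pore (0.015) and voltage-gated channels (-0.0026) in IE over ME.

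**Figure D3:**
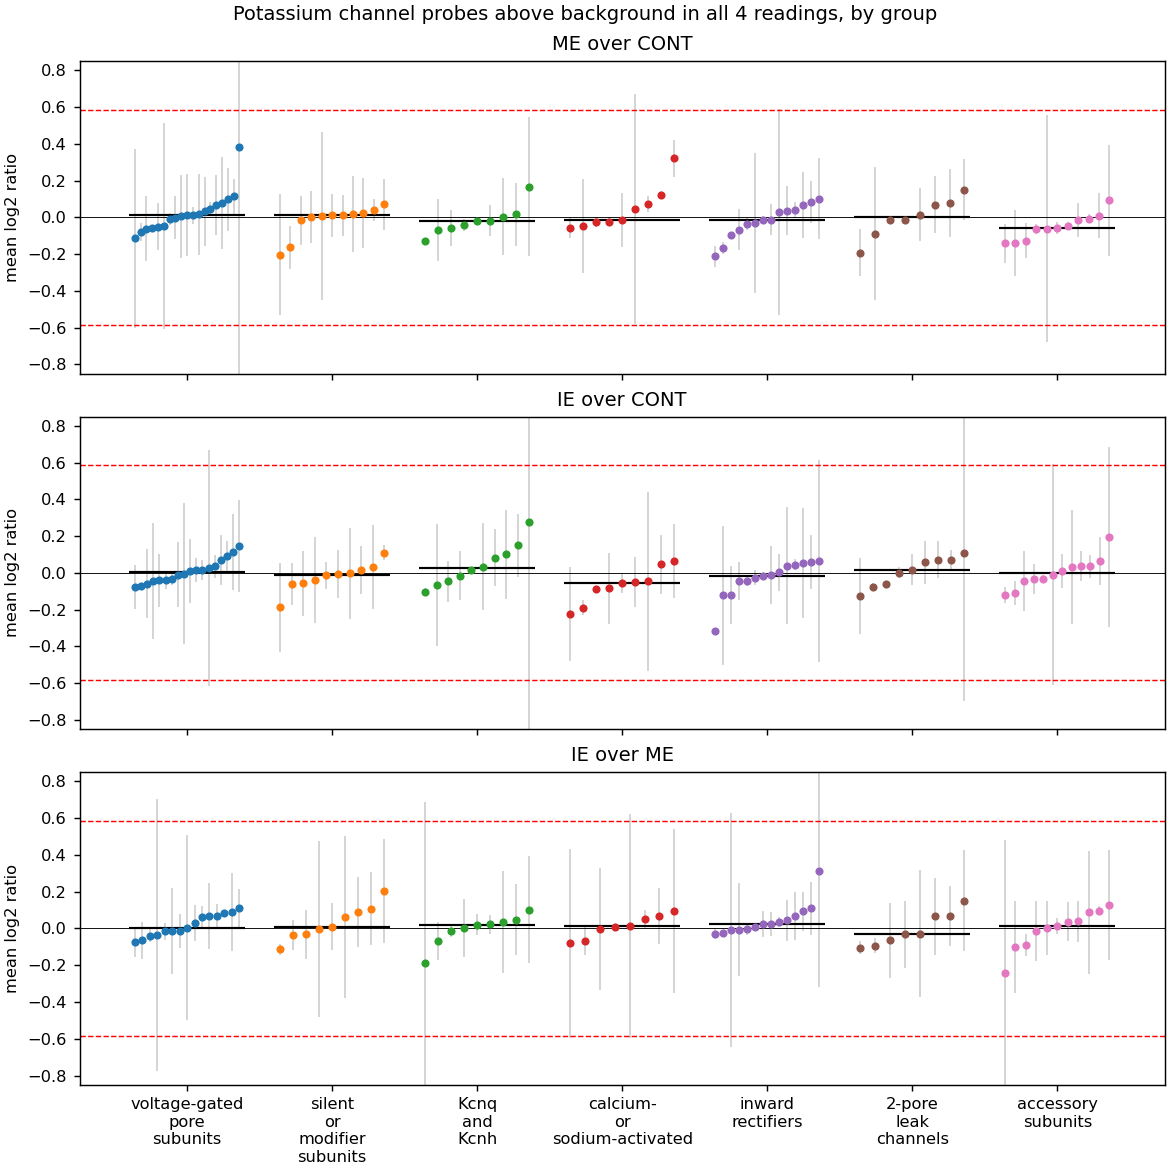
Mean log2 ratio of each potassium channel probe above background in all 4 readings (points) with the SD between the arrays of the swap (grey bars, cut at the frame), by group, with group medians as black lines and 1.5-fold as red dashed lines. Each panel is 1 comparison, and the group medians lie between -0.057 (accessory subunits, ME over CONT) and 0.026 (Kcnq and Kcnh, IE over CONT).

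Among the voltage-gated pore subunits (21 probes of 16 genes), the median log2 ratio was 0.011 with ME over 19 bright probes, 0.0024 with IE over 18 and 0.0047 in IE over ME over 15. Kcnd2, the main A-type subunit of hippocampal dendrites, was measured at -0.11 and -0.045 with ME (mean -0.079 ± 0.049) and at -0.081 and -0.058 with IE (mean -0.069 ± 0.017). All 4 values were below 0 and close to each other, and the IE over ME arrays gave 0.022 and 0.12. Kcna4, another A-type subunit, was at 0.047 ± 0.039 with ME and 0.035 ± 0.063 with IE.

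The axonal subunits Kcna1 and Kcna2 and the fast-spiking subunit Kcnc1 gave opposite signs on the arrays of both swaps against CONT, with each of their probes. The Kcna1 probe A_42_P475214 read 0.17 and -0.15 with ME, and Kcna2 read -0.19 and 0.063. For both probes the SD between the arrays was larger than the mean. In IE over ME, A_42_P475214 was among the highest probes on both arrays (0.18 and 0.035), but the other Kcna1 probe, A_44_P231457, was at -0.13 and -0.014. Kcna10 was at 0.15 and 0.032 with IE, and Kcna5, a delayed rectifier known from heart and smooth muscle, at 0.18 and 0.047 with ME and -0.056 and -0.012 with IE. Both were close to background, with a raw signal at most 3.2 and 2.7 times the local background. With normexp and loess the IE mean of Kcna10 went from 0.091 to 0.037, and the ME mean of Kcna5 from 0.11 to 0.015. The Kcnd3 probe A_44_P1052794, for another A-type subunit, had arrays of opposite sign against CONT and 0.085 and 0.081 in IE over ME, where it turned to a mean of -0.023 with normexp and loess.

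The silent or modifier subunits (13 probes of 10 genes) were centred at 0.010 with ME and -0.010 with IE, and at 0.0098 in IE over ME. Kcns1 was among the lowest probes in both exercise pools, at -0.25 and -0.080 with ME and -0.36 and -0.015 with IE. Its ME mean of -0.16 became -0.069 with normexp and loess. Its IE value rested on the first array, and in IE over ME it read 0.34 and -0.34. Kcns3 was at -0.092 and -0.14 in IE over ME (mean -0.11 ± 0.030), the lowest same-sign probe of that comparison. Kcng4 was the highest there with a mean of 0.20 ± 0.28, of which the first array gave 0.40 and the swap 0.0054. Kcng3 read 0.14 and 0.080 with IE, and its mean of 0.11 became -0.012 with normexp and loess.

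Among the Kcnq and Kcnh subunits (15 probes of 13 genes), the medians were -0.021 with ME, 0.026 with IE and 0.021 in IE over ME. Kcnq3, a subunit of the neuronal M-type channel, was at -0.020 and -0.066 with ME and at 0.035 and -0.12 with IE. It held one sign with ME and not with IE. Kcnq5, which also contributes to M-type current, was read by a probe at -0.14 and -0.12 with ME and -0.090 and -0.12 with IE (A_44_P520136), while its other probe gave 0.042 and -0.077, and 0.079 and -0.11. Kcnh1, an ether-a-go-go channel, had one of the smallest spreads, with -0.012 and -0.030 with ME and 0.026 and 0.0093 with IE. Kcnh7, a brain channel of the Erg type, was the highest same-sign probe with IE at 0.27 and 0.027 (mean 0.15 ± 0.17), where 1 array carried nearly all of the value. Its mean was 0.090 with normexp and loess.

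The calcium- or sodium-activated channels (9 probes of 7 genes) gave a median of -0.016 with ME. It was -0.054 with IE, with 7 of 9 probes below 0 (14053 of 28746 among all bright probes), and 0.011 in IE over ME. The IE median was -0.027 after normexp and loess, and -0.035 with loess and no background subtraction. Kcnn4, the intermediate-conductance calcium-activated channel known from blood cells and epithelia, had the largest same-sign ratio with ME, at 0.39 and 0.25 (mean 0.32 ± 0.099, 1.25-fold). With IE it was at 0.16 and -0.068. Its raw signal was only 1.43 to 1.76 times the local background on the ME arrays, the software's p was 0.13 and 0.33, and the mean was 0.046 with normexp and loess and 0.089 with loess and no background subtraction. The ME value of Kcnn4 thus depended on how the background was treated.

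Kcnma1, which encodes the large-conductance calcium-activated channel, read -0.16 and -0.22 with IE on A_43_P15328 (mean -0.19 ± 0.041) and 0.047 and -0.15 on A_44_P259947 (mean -0.050 ± 0.14). With ME the probes read -0.0073 and -0.046, and -0.0054 and -0.040. Both probes were near 0 with ME, and with IE their means differed by 0.14, as much as the SD of the second probe. The small-conductance channel Kcnn3 was at 0.10 and 0.042 with ME and at -0.041 and -0.40 with IE, and its means of 0.072 and -0.22 became 0.017 and -0.068 with normexp and loess. Kcnn2, its relative in pyramidal cells, had arrays of opposite sign against CONT. Kcnt1, a sodium-activated channel, was at 0.10 and 0.13 with ME (mean 0.12 ± 0.022, or 0.060 with normexp and loess) and at -0.080 and 0.21 with IE. Both Kcnt2 probes were below 0 on each array with IE, at means of -0.054 ± 0.056 and -0.087 ± 0.0017. The probe with the lower mean was dim, with a raw signal 1.88 to 2.99 times the local background on the IE arrays. The software's p for it was 0.68 and 0.70.

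Among the inward rectifiers (18 probes of 14 genes), Kcnj12 was the potassium channel probe with the lowest mean in both comparisons against CONT. Kcnj12 encodes a strong inward rectifier of the Kir2 family, which holds the resting potential. It was measured at -0.17 and -0.25 with ME (mean -0.21 ± 0.058, 0.863-fold) and at -0.32 and -0.32 with IE (mean -0.32 ± 0.0038, 0.802-fold). All 4 arrays against CONT lay below 0, and the raw signal was 6.30 to 17.7 times the local background over the 12 readings. The IE over ME arrays read -0.030 and -0.014 (mean -0.022 ± 0.011), which is smaller than the median SD of the Kcn probes. The means were -0.16 and -0.28 with normexp and loess, and -0.19 and -0.28 without background subtraction. The software's p was 0.40 and 0.22 with ME and 0.13 and 0.12 with IE, and both ratios stayed short of the 1.5-fold range. The comparisons with ME and with IE share the CONT pool, so its value enters both.

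Across the inward rectifiers, the group medians were -0.014 with ME, -0.014 with IE and 0.024 in IE over ME. Kcnj16, which joins Kcnj10 in astrocyte channels, was at -0.14 and -0.19 with ME (mean -0.17 ± 0.035, or -0.094 with normexp and loess) and at 0.099 and -0.12 with IE. Kcnj10 itself was at 0.16 and 0.0023 with ME and at 0.0044 and -0.056 with IE, close to background with a raw signal at most 2.95 times it. Its ME mean of 0.083 became -0.0071 with normexp and loess. Kcnj14 was at -0.098 ± 0.010 with ME and -0.041 ± 0.028 with IE. The pore subunits of ATP-sensitive channels, Kcnj8 and Kcnj11, gave -0.015 ± 0.022 and 0.036 ± 0.13 with ME and 0.044 ± 0.030 and 0.059 ± 0.14 with IE. Of the G protein-gated subunits, Kcnj6 (bright probe) was at -0.013 ± 0.083 with ME and 0.0033 ± 0.10 with IE, and Kcnj9 was at 0.0078 and 0.21 in IE over ME after opposite signs against CONT. The 4 Kcnj3 probes ranged from -0.035 to 0.10 with ME and from -0.045 to 0.055 with IE.

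The 2-pore leak channels (11 probes of 10 genes) had a median of 0.0015 with ME and 0.018 with IE, against -0.030 in IE over ME. Kcnk2, a mechanosensitive leak channel also known as TREK-1, read 0.27 and 0.033 with ME (mean 0.15 ± 0.17), 0.14 and 0.0022 with IE (mean 0.072 ± 0.099), and -0.065 and -0.12 in IE over ME (mean -0.094 ± 0.041). On all 6 arrays the sign put ME above CONT, IE above CONT and ME above IE, but the second array of each swap against CONT was near 0. The spot was bright, at 19.4 to 70.2 times the local background, and the ME mean was 0.15 with normexp and loess and 0.14 without background subtraction. The software's p with ME was 0.19 and 0.87. Kcnk10, the related TREK-2, was at -0.28 and -0.10 with ME and -0.13 and -0.078 in IE over ME, but its signal was at most 2.78 times the background, and its means of -0.19 with ME and -0.10 in IE over ME became -0.033 and -0.011 with normexp and loess. Kcnk9, an acid-sensitive leak channel, was at 0.11 and 0.036 with IE and 0.12 and -0.085 with ME. Kcnk1 had arrays of opposite sign in each of the 3 comparisons.

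The accessory subunits (17 probes of 14 genes) had medians of -0.057 with ME over 11 bright probes, 0.00041 with IE over 12 and 0.013 in IE over ME over 11. With ME, 9 of the 11 probes were below 0, 6 of them on both arrays, and these were the probes of Kcnab1 and Kcnip1 (a pair each) and those of Kcnmb2 and Kcnmb3. The median with ME was -0.0043 after normexp and loess, where 2 probes were below 0 on both arrays and 1 above. Kcnab1, a beta subunit of Kcna channels, was at -0.22 and -0.066 with ME and -0.16 and -0.063 with IE on A_44_P442780, where the means of -0.14 and -0.11 became -0.049 and -0.038 with normexp and loess. Its other probe was at -0.080 and -0.035 with ME and at -0.091 and 0.027 with IE. Kcnip1, which binds Kcnd channels, was at -0.084 and -0.044 with ME on A_44_P191742 and at -0.19 and -0.061 on A_44_P499954. With normexp and loess the ME mean on A_44_P191742 went from -0.064 to -0.0043. In IE over ME the former read -0.13 and -0.046, while the latter had 2 of 4 readings above background. Kcnab2, Kcnip4 and Kcnmb4, the neuronal beta subunit of the Kcnma1 channel, had means between -0.032 and 0.065 in the 3 comparisons. Kcne4, an inhibitory subunit of several voltage-gated channels, was above background in 1 of 12 readings, and the software set its ratio to 0 on 4 of the 6 arrays, so that no ratio is given.

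**Figure D4:**
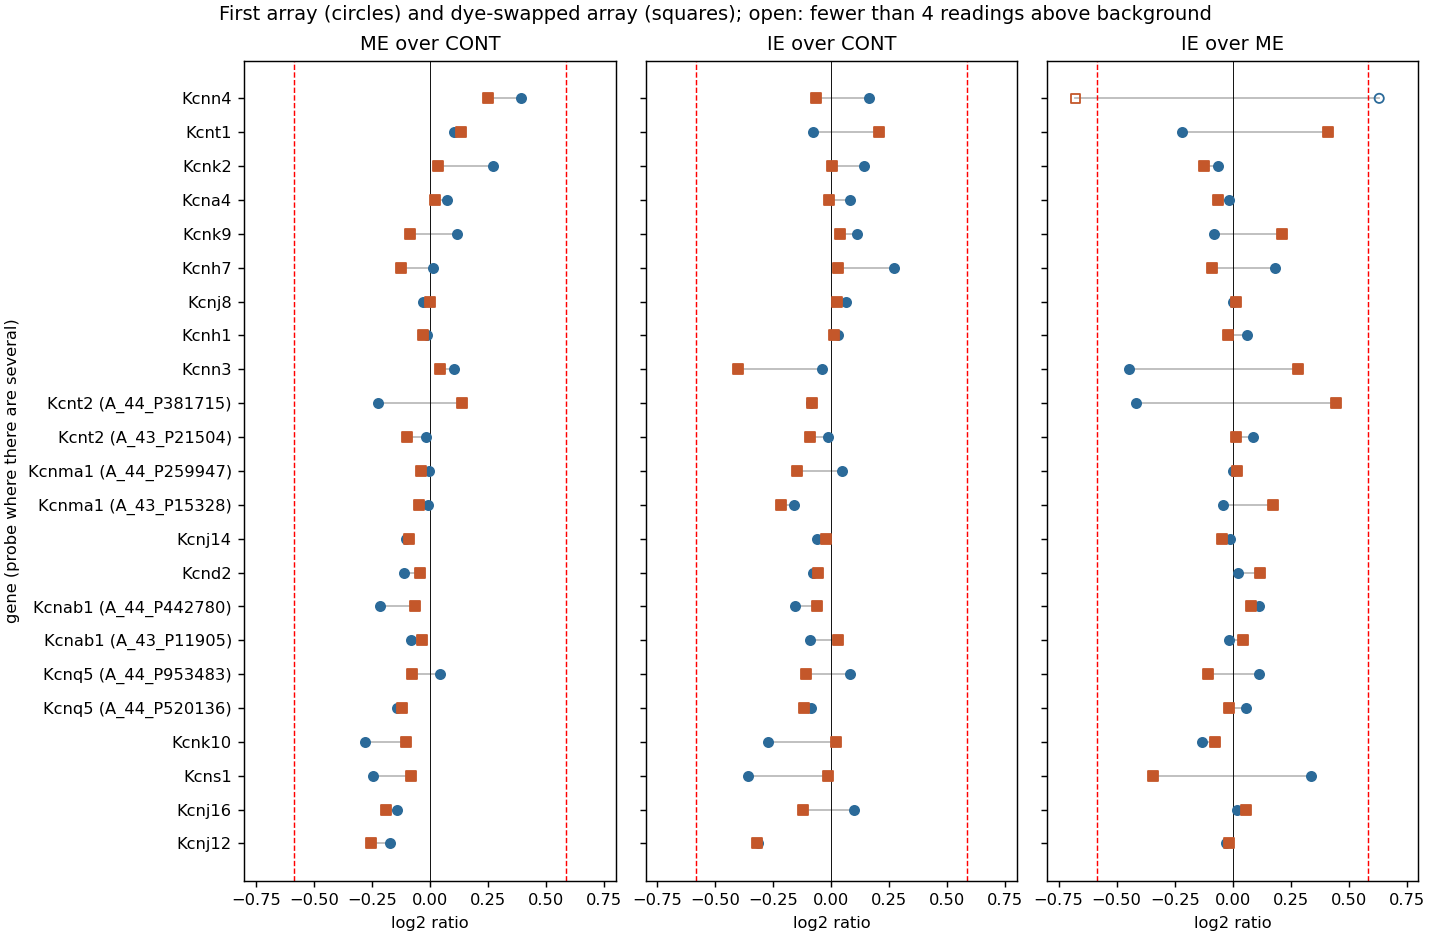
Log2 ratio on the first array (circles) and on the dye-swapped array (squares) for 19 potassium channel genes, with open symbols where fewer than 4 readings were above background and 1.5-fold as red dashed lines. The Kcnj12 symbols lie left of 0 in each panel, at -0.17 and -0.25 with ME and at -0.32 on both arrays with IE.

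For 15 genes the array carried 2 or more probes, so that the ratio could be read again from another part of the transcript. Where at least 2 probes of a gene were bright (10, 9 and 8 genes), the difference between the highest and the lowest mean was typically (median) 0.074 with ME and 0.079 with IE, and 0.10 in IE over ME. The probes of a gene thus lay closer together than 0.12, the smallest median SD between arrays. The widest gaps were 0.38 for Kcna3 with ME, 0.14 for Kcnma1 with IE and 0.32 for Kcnj3 in IE over ME. The Kcnj3 gap came from A_44_P247906, which read 0.76 and -0.14 there at a signal at most 2.9 times the background, and its mean of 0.31 became 0.17 with normexp and loess. Of the Kcng2 probes, A_44_P536779 and A_44_P536780 share 20 bases, and they read -0.067 and 0.091, and -0.072 and 0.093 with ME. The array lists 3 of the Kcnj3 probes on chromosome 8 and A_44_P247906 on chromosome 3.

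**Figure D5:**
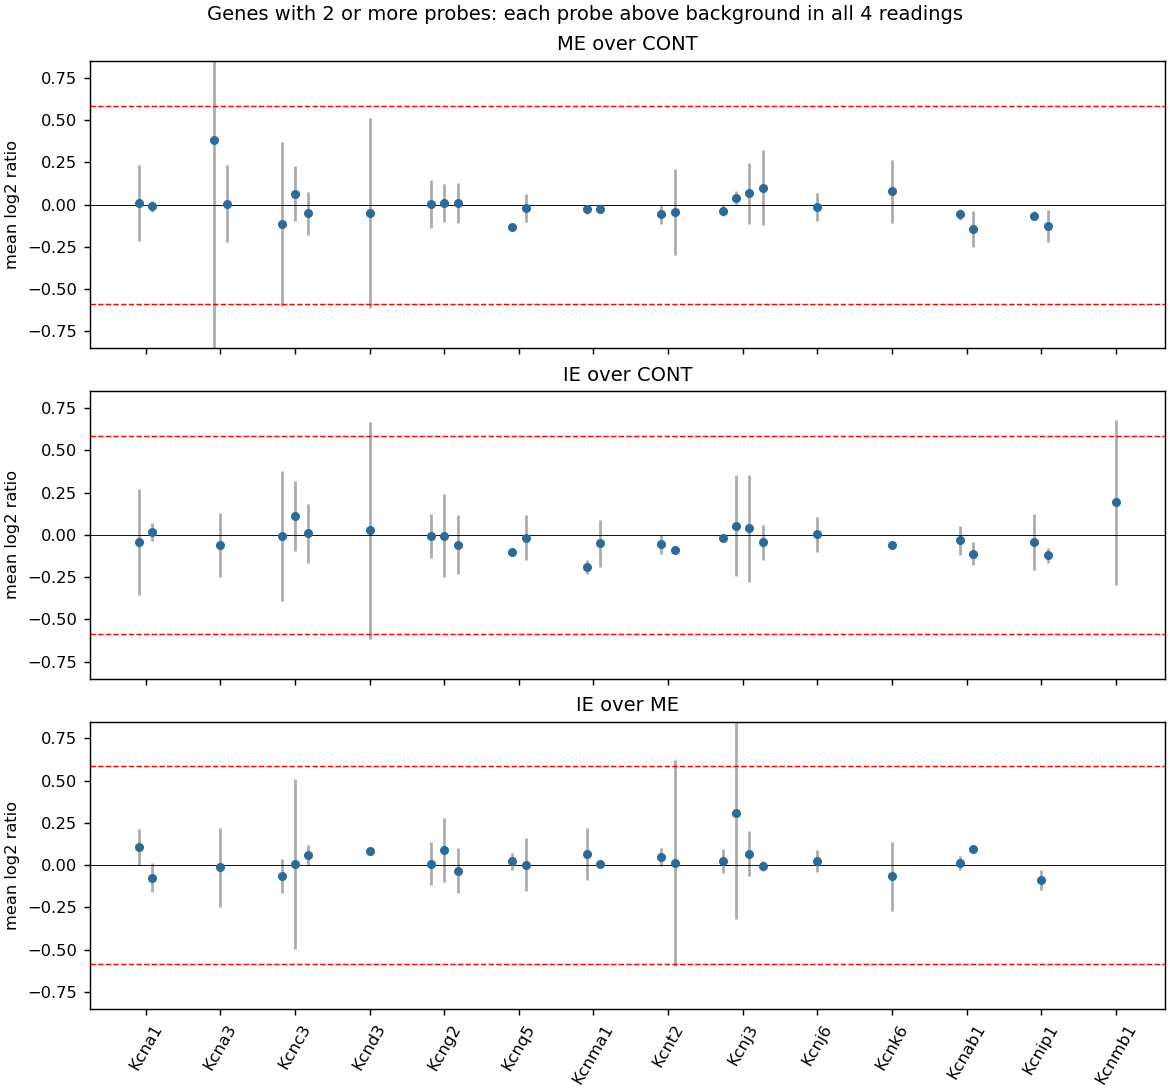
Mean log2 ratio of each probe above background in all 4 readings, for genes with 2 or more probes, with the SD between the arrays of the swap as bars (cut at the frame) and 1.5-fold as red dashed lines. Genes with no such probe are not drawn, and the widest gap is that of Kcna3 with ME, 0.38.

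Some of the largest ratios followed the dye and not the pool. With one dye brighter on both arrays of a swap, 1 Kcn probe lay past the same limits with ME (Kcna3), as did 2 with IE (Kcna3 and Kcnh4) and 3 in IE over ME (Kcna5 and Kcnh4 among them), where 0.87%, 0.908% and 4.18% of all probes did. The Kcna3 probe A_44_P247900 read 2.20 and -1.44 with ME and 1.40 and -1.85 with IE. Against CONT its Cy5 signal was the higher whichever pool carried the dye, while in IE over ME it read 0.58 and 0.32 with 2 of 4 readings above background. The other Kcna3 probe read 0.17 and -0.16 with ME and 0.073 and -0.19 with IE, so that Kcna3, a channel of lymphocytes and microglia as well as neurons, had a mean near 0 by the probe with 12 of 12 readings. Kcnh4 read 4.47 and -3.91 with IE, where its raw Cy5 signal was 9.47 and 7.83 times the background and its Cy3 signal 1.35 and 1.41 times. The Kcna3 mean of 0.38 with ME and the Kcnh4 mean of 0.28 with IE, the highest of the Kcn probes, are therefore differences between large opposite values. Averaging over a swap removes the part that follows the dye, and that part was larger than the mean for 52 of 81, 57 of 82 and 53 of 74 bright Kcn probes (64.2%, 69.5% and 71.6%, against 71.4%, 71.8% and 73.3% of all bright probes).

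Genes whose products act beside potassium channels were read from a list of 17 genes, of which 16 were on the array with 25 probes. It held, among others, Dpp6 and Dpp10 (partners of Kcnd), Abcc8 and Abcc9 (partners of Kcnj8 and Kcnj11), Lgi1, subunits of the sodium-potassium pump and the chloride transporters Slc12a2 and Slc12a5. None was called in the 3 comparisons. The medians over 23 bright probes were 0.0087 with ME, -0.0033 with IE and -0.0013 in IE over ME. Slc12a2 was the lowest with IE, at -0.19 and -0.28 on a probe and -0.087 and -0.062 on the other. Abcc9 had arrays of opposite sign in each comparison. Potassium channel genes also stand on the array under older names. Kcnip3, listed as Csen, read 0.072 and -0.072 with ME and -0.040 and -0.0077 with IE, and Kcnk18, listed as Tresk-2, was above background in 2 of 4 readings with ME and read -0.69 and -0.043 with IE.

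The pools differed in markers of tissue outside the hippocampus. Of 13 probes for 9 meningeal markers, 9 were called higher with ME and 0 with IE, with a summed signal of 12939 to 13343 in the ME pool and 6769 to 7333 in the CONT pool on the ME arrays. Of 10 probes for 9 choroid plexus markers, 3 were called higher with ME and 4 with IE, with a summed signal of 1190 to 1211 (ME) against 686 to 771 (CONT), and 3914 to 4280 (IE) against 889 to 1016 (CONT), while 2 of the probes with ME and 1 with IE passed in 0 of the 4 readings of a swap. The cerebellar markers had a median of 0.35 over 3 bright probes with ME, where 1 of the 4 probes was called higher, and -0.0012 over 2 with IE. In IE over ME, 8 meningeal probes were called lower (median -0.91), 2 choroid plexus probes higher (median 0.74), and the cerebellar markers had a median of -0.47. The median of the thalamic markers was 0.15 (ME), 0.12 (IE) and -0.21 (IE over ME). Markers of hippocampal neurons had medians of -0.016 with ME and 0.015 with IE over 8 probes, all bright. Astrocyte, oligodendrocyte, microglial and endothelial markers had 0 probes called. Kcnj13 and Kcne2, channel genes of choroid plexus, were left out of the set and stand in the choroid plexus list. Kcnj13 met the criteria with ME (1.30 and 2.17) and with IE (2.25 and 1.93, with 3 of 4 readings above background), and read 0.17 and -0.42 in IE over ME. Kcne2 was not called. The part of these tissues in the ratios of the potassium channel probes was not tested.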

How the data were processed

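Hippocampal RNA pools were read on 6 Agilent 2-colour arrays. The log10 ratio deposited by the authors is Cy5 over Cy3 per spot after background subtraction and LOWESS in Feature Extraction (9.5.3.1 against CONT, 11.0.1.1 for IE over ME, per the file headers). That software also gave the p-value in the deposited files. The intensity deposited by the authors is linear, per spot and channel. The authors' value table holds log10 ratios of the processed signals, with the sign of the second array of each swap turned, and column medians of -0.0084 to 0.0071. Here, control features (1639 of 45018) and outlier spots were left out, and ratios were turned to log2 with the exercise or IE pool as numerator. Brightness over background, in place of depth, bears on the precision. For bright Kcn probes the error that the software gives a log2 ratio was at least 0.204. Its median was 0.206 to 0.208 on the 6 arrays. Python 3.11.15, R 4.3.3 and limma 3.58.1 were used. Alternatives were normexp (offset 50) with loess, loess without background subtraction, the value table, other limits and single arrays. The criteria were tested on simulated data. Probes were named when among the 4 highest or 4 lowest bright probes of equal sign in a comparison, when past the fold range, or when on a list of 25 genes, while Kcng2, Kcnj8, Kcnj14, Kcnmb2, Kcnmb3, Kcnq5, Kcnt2 and the dye-dependent Kcna3 and Kcnh4 were added after their values were seen. Kcn symbols are those of the array, and 82 of 104 probes matched RefSeq (GRCr8) by accession. The 25 genes include Kcnk2 and Kcne4 because the study's supplementary gene lists, which hold genes past its fold range, name them. Members and lists were chosen with earlier results of these data known. Some members are not reported here.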

Additional observations from a re-analysis of the deposited data

Results flagged for a closer look

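For 3 potassium channel probes, both arrays with ME lay on one side of 0 and both arrays with IE on the other. How many of all bright probes did so was not counted, so this number does not set the potassium channels apart. Kcnn3 had a mean log2 ratio of 0.072 with ME and -0.22 with IE. Kcna5 had 0.11 with ME and -0.034 with IE. After normexp and loess these means were 0.017 and -0.068 for Kcnn3 and 0.015 and -0.028 for Kcna5. Kcnh1 had -0.021 with ME and 0.018 with IE. The difference between the exercise groups was not tested, since each group is 1 pool. The direct IE over ME arrays read -0.45 and 0.28 for Kcnn3 and 0.061 and -0.020 for Kcnh1, with opposite signs, and Kcna5 had 2 of 4 readings above background there.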

How the results depend on the processing

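No paired analysis was possible because a single pool stands for each group. The count of called Kcn probes was 0 in each comparison without the p threshold, with 1.5-fold on each array, with the mean ratio, with bright probes alone, after normexp and loess, with outlier spots kept and, chosen after seeing the data, with the Kcn genes under older names added. With the authors' value table and no p threshold it was 1 with ME and 1 with IE, in both cases Kcne4, whose probe was at background, and 0 in IE over ME. On 1 array alone, where dye and pool cannot be told apart, 1 to 2 probes passed with ME (1 without the first array), 2 to 4 with IE (2 without the first) and 4 to 7 in IE over ME (4 without the first), against 1.43% to 7.87% of all probes. The median log2 ratio with ME was 0.0055 after normexp and loess, where all bright probes had 0.0044. On 1 array alone the medians were -0.031 to -0.012 with ME, -0.030 to -0.011 with IE and -0.0096 to 0.016 in IE over ME. The other medians moved by less than their SD between arrays, and with 1 value a gene that with IE was 0.0011. Of the named bright probes, 35 of 43 kept their sign with ME after normexp and loess, 38 of 43 with IE and 34 of 38 in IE over ME. These causes were not tested.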
